A study of Mus musculus with 12 samples.

Results

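The genes followed were Ddx3x, Lcorl, Drg1, C2cd2, 4930432K21Rik, 5430419D17Rik, Gm26909 and Gm26573, which are 8 of the 23513 genes counted in nuclei of the mouse cortex at embryonic day 14. They had been selected on the measured EtOH effect, since their level in EtOH embryos differed from that in saline embryos in 1 direction in 5 or more of 25 clusters of nuclei. Ddx3x and Lcorl were lower after EtOH, and the other 6 were higher. Because the choice used the difference between EtOH and saline embryos, every value of that difference, in a cluster, cell type or batch, is given as a description, without a p-value. The difference between batches at fixed treatment and the level in 1 cell type against another were tested. The choice favours genes with little spread among embryos of a treatment, so that a batch difference that does not pass the test is no independent evidence.

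Pregnant C57BL/6J dams had received injections of saline or ethanol (EtOH) on consecutive days of mid-gestation, and the cortex of each embryo was profiled by single-nucleus RNA sequencing (snRNAseq), in which barcodes called unique molecular identifiers (UMIs) mark single molecules. Embryos are named by dam and number: S1-1, S1-2, S2-1, S2-2 and S2-4 had saline, and E1-1, E1-2, E2-1, E2-2, E2-3 and E2-4 had EtOH. Batch 1 held the litters S1 and E1 and batch 2 the litters S2 and E2, so that each treatment rests on 2 dams, and p-values treat littermates as independent. The 50550 nuclei were those of neurons and their progenitors that the authors kept, and saline embryo S2-3 was not used here.

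One library did not sit with its group. On the first principal component of whole-embryo expression, which held 57.3% of the variance between embryos, saline embryo S2-4 scored 12.7, within the 9.41 to 15.7 of the 6 EtOH embryos, while the other 4 saline embryos scored between -28.7 and -13.2. S2-4 also had a median of 6325 UMIs per nucleus, against 8365 to 9051 in the other saline embryos and 4072 to 6911 in the EtOH embryos, and the share of UMIs from genes under 10 kb was 5.21% in S2-4, 3.99% to 4.76% in the other saline embryos and 4.92% to 5.30% in the EtOH embryos. Ppia, an abundant housekeeping gene, stood at 43.7 in S2-4, 19.25 to 25.97 in the other saline embryos and 38.2 to 47.0 in the EtOH embryos, in counts of a gene per 1000000 UMIs of the embryo (CPM). For ribosomal protein genes S2-4 had 0.2285% of UMIs, within the 0.1669% to 0.2345% of the other saline embryos. EtOH embryos had 0.2161% to 0.241%. Of the other saline embryos, S2-2 lay nearest to the EtOH embryos on the first component, in Ppia and in genes under 10 kb. The label of S2-4 was kept. EtOH differences over whole embryos, their medians over clusters and calls in clusters are given with and without it. Those by cell type and most of those in single clusters are given with it only. Total UMIs lay between 44017566 and 83061737 in the saline embryos, with 53924776 in S2-4, and between 14078316 and 38034349 in the EtOH embryos. The groups did not overlap, so that total depth follows treatment. Any 2 libraries shared 1 to 18 nucleus barcodes, at most 0.384% of the smaller library. Nuclei that the authors named radial glial cells (RGCs) had 436 to 610 summed CPM of Hes1, Hes5, Sox2, Pax6 and Vim in the 11 embryos, against 22.8 to 53.9 CPM in projection neurons (PN), and interneurons (Int) had 1312 to 1745 CPM of Gad1, Gad2, Dlx1, Dlx2, Dlx5 and Dlx6, against 25.4 to 124 CPM in PN. The 4 markers of microglia summed to between 14.96 and 32.4 CPM in saline embryos, with S2-4 the highest, and to between 27.7 and 37.1 CPM in EtOH embryos. Among the 4, P2ry12 and Cx3cr1 were called higher over whole embryos, and none was at 0. The 4 endothelial markers summed to between 7.23 and 12.9 CPM in saline and 6.91 to 13.2 CPM in EtOH embryos, with Cd93 called lower. Among the markers of the neuronal lineage 1 of 5 for RGCs (Sox2), 1 of 4 for intermediate progenitor cells (IPCs; Neurog2) and 1 of 5 for PN (Neurod2) were called lower, while the sums overlapped between the groups, with 1031 to 1371 CPM of the PN markers in saline and 1200 to 1516 CPM in EtOH embryos. No marker of interneurons, striatal, Cajal-Retzius, thalamic, meningeal or erythroid cells, pericytes or oligodendrocyte precursors was called, where 18.65% of all genes were called in either direction. Thinned to equal depth, the whole-embryo differences of the 8 genes kept their direction and all 8 passed, where 1295 genes were called higher and 1274 lower. These 8 genes were chosen on the same embryos, so that passing again was largely set in advance and is no evidence on depth. Their calls in clusters went from 56 to 40 (over all genes, from 961 to 958 higher and from 760 to 613 lower), and those of 5430419D17Rik from 6 to 0 (edgeR), with its median log2 difference over clusters at 1.08 against 1.53. The part of gene length and these other cells in the differences below was not tested.

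The members have different roles. Ddx3x encodes an X-linked RNA helicase of the DEAD box family that acts in the start of translation, and disruption of the human gene causes a syndrome of intellectual disability. It is among the genes that escape X inactivation, so that cells with a pair of X chromosomes can transcribe both copies. Lcorl encodes a transcription cofactor related to Lcor, and both loci also give proteins that bind the histone-methylating Polycomb repressive complex (PRC2). Drg1 encodes a GTPase that is bound and stabilised by Zc3h15 and acts at ribosomes, and C2cd2 encodes a membrane protein with a lipid-binding C2 domain related to C2cd2l. 4930432K21Rik and 5430419D17Rik are annotated as protein-coding, and Gm26909 and Gm26573 as long intergenic non-coding RNAs (lincRNAs).

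The positions below are those of GENCODE M21 on GRCm38, to which the mm10 reference named by the authors corresponds, and 23100 of the 23513 gene names had 1 match. Ddx3x (ENSMUSG00000000787) lies at chrX:13280970-13294052 on the plus strand, and Lcorl (ENSMUSG00000015882) at chr5:45697181-45857615 on the minus strand, where 3366 bases overlap Ncapg on the other strand. Drg1 (ENSMUSG00000020457) spans chr11:3187360-3266415 on the minus strand, sharing 42197 bases with Eif4enif1 on the other strand and 6104 bases with Sfi1 on its own strand. C2cd2 (ENSMUSG00000045975) spans chr16:97855209-97962598 on the minus strand and shares 19242 bases with Zbtb21 on the same strand. 4930432K21Rik (ENSMUSG00000008129) lies at chr8:84148025-84172590 on the plus strand. The other 3 members overlap further genes to a greater extent. 5430419D17Rik (ENSMUSG00000006204), at chr7:131174402-131306451 on the plus strand, lies with all of its 132050 bases inside Fgfr2, a fibroblast growth factor receptor gene on the minus strand. The annotated span of Fgfr2, chr7:130162451-133123350, also covers further genes, Tacc2 and Bub3 among them. Gm26909 (ENSMUSG00000097839), at chr8:22644861-22646286 on the plus strand, lies with all of its 1426 bases inside Polb, a DNA polymerase gene on the minus strand. Gm26573 (ENSMUSG00000096958), at chr4:146153456-147024959 on the minus strand, spans 871504 bases of which 0.347% are exonic, in a cluster of zinc finger genes and pseudogenes where 26 annotated genes overlap it. The authors ran Cell Ranger with its default settings, and the sources used here do not state in words which strand was counted, so the values of these 3 genes are given beside those of their overlapping partners. The values of Gm26573 are uncertain also because near-identical copies can share its reads.

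The table of RefSeq upstream sequences used here matched 4 of the 8 symbols (Ddx3x, Lcorl, C2cd2 and 4930432K21Rik). The 250 bases before the RefSeq start on GRCm38.p6 are printed 5′ to 3′ on the strand of the gene, to show the promoters of the members with coding models that moved in opposite directions. Capitals mark matches, on either strand, to the letters of 5 common promoter motifs. The GC box was searched as GGGCGG and held by 32.7% of 32817 upstream sequences of this length. The E box was searched as CACGTG, held by 6.02% of them. The CAAT box was searched as CCAAT, held by 33.8% of the sequences. The TATA box was searched as TATAAA, held by 12.4% of the sequences. The cAMP response element was searched as TGACGTCA, held by 1.55% of the sequences. Ddx3x (chrX:13280772-13281021, plus strand), 4930432K21Rik (chr8:84147788-84148037, plus strand) and C2cd2 (chr16:97922634-97922883, minus strand) each held 1 GC box match, and the first of the RefSeq starts of Lcorl (chr5:45857541-45857790, minus strand) held 1 E box match. The second start of Lcorl (chr5:45856553-45856802, minus strand), not printed here, held 2 GC box matches and no E box match. The RefSeq start of C2cd2 lies inside the longer GENCODE span given above.
Ddx3x promoter: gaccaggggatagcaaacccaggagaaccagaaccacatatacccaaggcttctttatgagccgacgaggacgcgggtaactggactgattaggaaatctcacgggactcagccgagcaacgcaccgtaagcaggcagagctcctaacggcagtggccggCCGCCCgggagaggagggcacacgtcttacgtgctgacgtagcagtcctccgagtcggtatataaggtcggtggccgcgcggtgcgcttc
Lcorl promoter: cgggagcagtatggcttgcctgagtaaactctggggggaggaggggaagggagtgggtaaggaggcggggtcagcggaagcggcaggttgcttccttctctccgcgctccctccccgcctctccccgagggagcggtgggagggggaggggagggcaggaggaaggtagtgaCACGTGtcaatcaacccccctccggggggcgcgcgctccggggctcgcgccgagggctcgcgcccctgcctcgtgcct
C2cd2 promoter: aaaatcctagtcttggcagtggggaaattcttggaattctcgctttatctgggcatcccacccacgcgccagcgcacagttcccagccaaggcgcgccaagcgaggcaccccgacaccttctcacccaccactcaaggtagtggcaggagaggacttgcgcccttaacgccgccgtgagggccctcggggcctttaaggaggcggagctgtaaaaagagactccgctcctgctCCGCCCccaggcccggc
4930432K21Rik promoter: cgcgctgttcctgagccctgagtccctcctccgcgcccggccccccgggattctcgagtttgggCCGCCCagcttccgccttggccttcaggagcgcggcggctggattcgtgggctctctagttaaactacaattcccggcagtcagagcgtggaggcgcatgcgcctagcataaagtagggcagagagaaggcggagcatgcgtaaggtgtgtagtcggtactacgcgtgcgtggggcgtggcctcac
The CAAT box, TATA box and response element letters were not found in the 4 windows shown. The 4 sequences held 22, 21, 17 and 24 CG dinucleotides in the order printed, against a median of 6 over all sequences.

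Ddx3x was lower in every EtOH embryo than in every saline embryo. Summed over all clusters, its level was 125, 134, 119.9, 143 and 114 CPM in saline embryos S1-1, S1-2, S2-1, S2-2 and S2-4, and 77.6, 93.7 and 105 CPM as the lowest, median and highest of the 6 EtOH embryos. The groups did not overlap, and S2-4 was the lowest saline embryo. The mean fell from 127 ± 11.4 (SD, n = 5) to 92.4 ± 10.8 CPM (n = 6), a log2 difference of -0.53 ± 0.09 (SE) in the edgeR fit with batch as a covariate and of -0.58 ± 0.08 without S2-4. In such sums, fewer nuclei that transcribe a gene and less RNA of it per nucleus cannot be told apart. Nuclei with a UMI of Ddx3x made up 49.33% to 66.73% in saline and 31.47% to 48.57% in EtOH embryos. For Lcorl the ranges did not overlap either. They overlapped for each of the genes that were higher. C2cd2 had 21.03% to 22.74% against 16.11% to 26.74%, and Drg1 56.92% to 67.12% against 52.93% to 70.85%. EtOH embryos had fewer UMIs per nucleus than saline embryos other than S2-4, and the part of depth in these shares was not tested.

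Lcorl was also lower in every EtOH embryo. Its level was 593, 587, 653 and 621 CPM in S1-1, S1-2, S2-1 and S2-2, and 489 CPM in S2-4. The EtOH embryos had 431, 465 and 488 CPM as lowest, median and highest. S2-4 lay just above the highest EtOH embryo, and the other 4 saline embryos lay apart from both. Between the groups the fitted log2 difference was -0.41 ± 0.08 (SE), and -0.49 ± 0.05 without S2-4.

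Drg1 was higher and varied little among EtOH embryos. Its level was 100.2, 99.95, 105 and 124 CPM in S1-1, S1-2, S2-1 and S2-2, and 191 CPM in S2-4. The EtOH embryos had 181, 183 and 196 CPM as lowest, median and highest. The groups overlapped through S2-4, which lay above 5 of the 6 EtOH embryos, and without it the saline embryos lay below all EtOH embryos. The log2 difference was 0.52 ± 0.12 (SE) with S2-4 and 0.69 ± 0.05 without it.

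C2cd2 was higher in every EtOH embryo than in every saline embryo. It had 28.2, 29.8, 30.2, 33.5 and 46.4 CPM in the saline embryos in the order above, and 47.5, 52.2 and 60.7 CPM as lowest, median and highest of the EtOH embryos. S2-4 was the highest saline embryo and lay close to the lowest EtOH embryo, E1-1. On the log2 scale EtOH was 0.60 ± 0.09 (SE) higher, and 0.71 ± 0.07 higher without S2-4.

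4930432K21Rik was higher after EtOH by a larger ratio. Its level was 16.7, 17.9, 21.4, 25.8 and 41.6 CPM in S1-1, S1-2, S2-1, S2-2 and S2-4, and 41.6, 46.8 and 50.1 CPM as lowest, median and highest of the EtOH embryos. The groups did not overlap, but S2-4 and the lowest EtOH embryo, E1-1, differed by less than 1 CPM, and the other saline embryos lay well below both. The log2 difference was 0.87 ± 0.16 (SE), and 1.08 ± 0.08 without S2-4.

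5430419D17Rik had few UMIs, between 86 and 357 per embryo. Its level was 1.55, 2.28, 2.92, 4.07 and 5.84 CPM in the saline embryos in the same order, and 6.11, 9.08 and 11.4 CPM as lowest, median and highest of the EtOH embryos. The groups did not overlap, with S2-4 again the saline embryo nearest to the EtOH embryos. The log2 difference was 1.38 ± 0.23 (SE), a 2.60-fold ratio, and 1.59 ± 0.20 without S2-4. Fgfr2, which encloses it on the other strand, moved the same way, from 411 ± 92.8 CPM (SD, n = 5) to 535 ± 22.3 CPM (n = 6), and passed the test in 4 clusters, and in 19 without S2-4.

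The lincRNA Gm26909 showed the next largest ratio. It had 6.32, 5.65, 5.46, 8.04 and 14.9 CPM in the saline embryos and 14.3, 20.7 and 23.8 CPM as lowest, median and highest of the EtOH embryos. The groups overlapped only where S2-4 exceeded E1-1. EtOH was 2.37-fold higher, with an SE of 0.22 on the log2 scale, and by a log2 difference of 1.53 ± 0.15 without S2-4. Polb, which encloses it, had 202 ± 8.32 CPM in saline and 199.5 ± 12.5 CPM in EtOH embryos and passed the test in 0 of 25 clusters.

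Gm26573 was higher after EtOH with 1 saline embryo among the EtOH values. It had 15.3, 15.7, 14.9 and 24.01 CPM in S1-1, S1-2, S2-1 and S2-2, and 36.1 CPM in S2-4. The EtOH embryos had 33.7, 37.7 and 42.6 CPM as lowest, median and highest. S2-4 lay within the EtOH range, and the other saline embryos lay below it. The log2 difference was 0.79 ± 0.18 (SE), and 1.02 ± 0.11 without S2-4. Of the genes overlapping it, the lincRNA C230088H06Rik shares 6725 bases with it on the same strand. C230088H06Rik rose with it, from 19.3 ± 7.89 to 31.7 ± 3.47 CPM, and passed the test in 2 clusters, and in 15 without S2-4. Whether shared reads link these 2 values was not tested. The other 5 overlapping genes with enough counts lie on the other strand and were not called over whole embryos. Their log2 differences were -0.16 for Zfp600, -0.17 for Zfp981, 0.04 for Zfp992, 0.15 for Zfp993 and 0.245 for Gm13166.

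**Figure D1:**
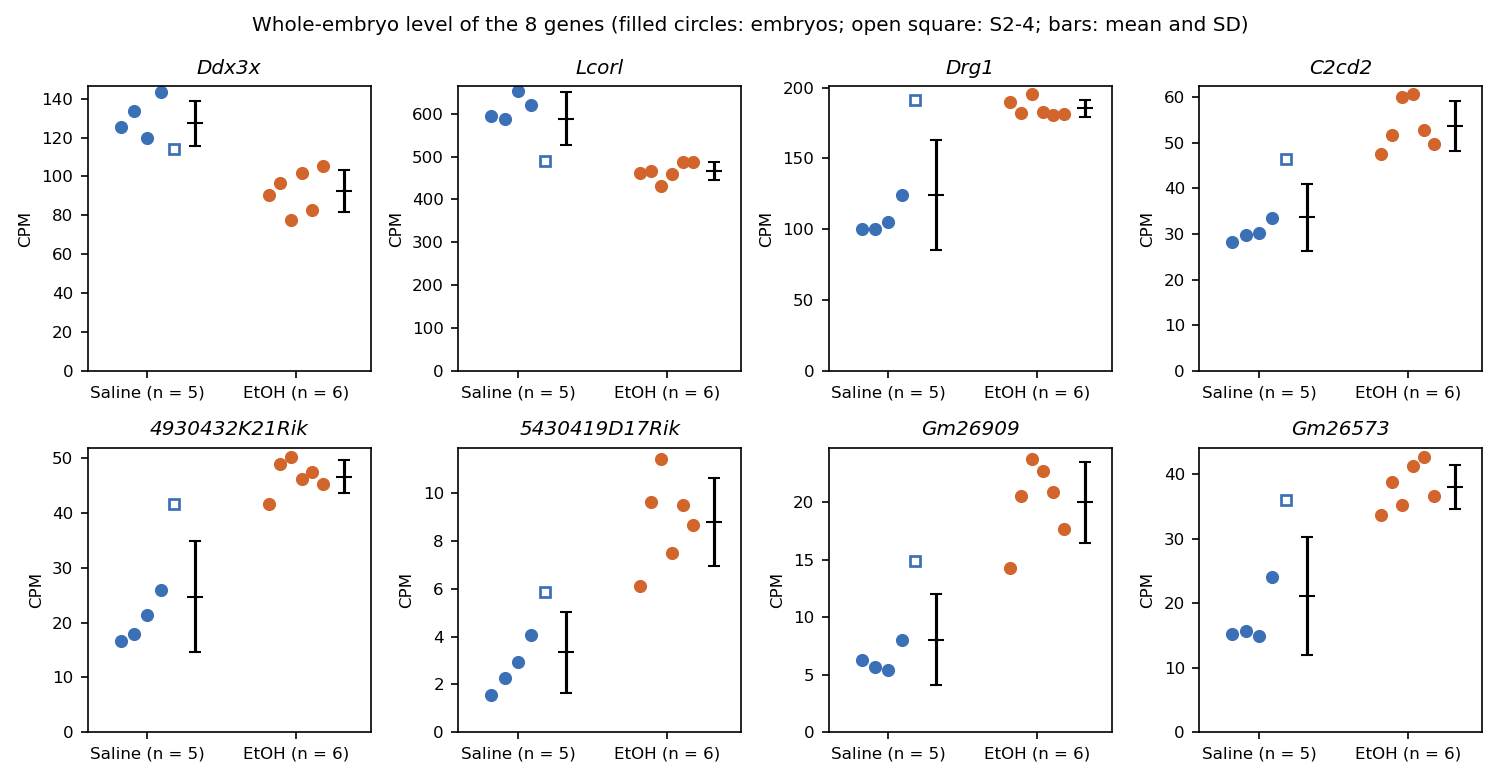
Whole-embryo level (CPM, linear axes from 0) of the 8 genes in 5 saline (blue) and 6 EtOH (orange) embryos, each point 1 embryo in accession order, with S2-4 as an open square and black bars for the mean and SD. S2-4 lies at 191 CPM for Drg1, where the other saline embryos reach at most 124 CPM and the EtOH embryos start at 181 CPM.

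In all, 5 of the 8 genes (Ddx3x, Lcorl, C2cd2, 4930432K21Rik and 5430419D17Rik) did not overlap between all saline and all EtOH embryos, where 1.94% of 19135 genes were higher and 2.06% lower without overlap. Without S2-4 all 8 did not overlap, where 17.5% of genes were higher and 4.84% lower without overlap. In the whole-embryo fit all 8 passed an adjusted p of 0.05, where 9.2% of genes were called higher and 9.45% lower (1761 and 1808 genes, or 1650 and 715 when scaled to total counts), and without S2-4 all 8 passed where 19.8% were called higher and 17.6% lower. With any other embryo left out, 8 passed, except 6 without S1-1 or S2-2, 4 without S2-1 and 0 without S1-2 or E1-2. Over all genes, 184 were then called higher and 566 lower without S1-1, 416 and 842 without S2-2, 61 and 188 without S2-1, 0 and 8 without S1-2, and 0 and 29 without E1-2. With counts summed per dam, fewer of the 8 and fewer of all genes passed, as given at the end. Nothing is read from these counts, since the genes were chosen on the same embryos.

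The direction of each gene was the same in every cluster where it had enough counts to be tested. A gene was called in a cluster at an adjusted p under 0.05 (edgeR, Benjamini-Hochberg) with a rise of over 25% or a fall of over 20%, in embryos with at least 10 nuclei there. Of 217253 tests of a gene in a cluster, 0.442% were called higher and 0.35% lower, and the 8 genes were called in 56 of their 171 tests. Without S2-4, 6.17% of tests were called higher and 2.61% lower, and the 8 genes were called in 134 of 172 tests, while leaving out any other 1 embryo left 3 (S1-1 or S1-2) to 22 (E1-1) calls of the 8 genes, and 39 to 424 calls higher and 50 to 342 lower over all genes. With batch as a covariate fewer tests of the 8 genes and of all genes were called. With counts summed per dam fewer tests of the 8 genes were called, but more over all genes. These counts are given at the end. Being called in 5 or more clusters, the rule itself, held for 19 genes in the higher direction (0.143% of 13333 genes) and 13 in the lower direction (0.0975%), and without S2-4 for 6.84% and 2.55% of 13368 genes.

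Ddx3x was called lower in 7 of 25 clusters (Clusters 1, 3, 4, 5, 8, 10 and 11), which include PN, interneuron, interneuron precursor and striatal nuclei, and in 14 of 25 without S2-4. Its log2 difference ran from -1.03 in Cluster 24 to -0.20 in Cluster 19, with a median of -0.42, and of -0.47 without S2-4. Lcorl was called lower in 7 of 25 clusters (Clusters 1, 2, 3, 5, 8, 9 and 11) and in 17 without S2-4. Its difference was most negative, at -0.71 ± 0.14 (SE), in Cluster 11, the striatal interneurons where its level was lowest, and ran up to -0.16 with a median of -0.42. Without S2-4 the median of Lcorl was -0.48. Both genes had a lower mean in EtOH than in saline embryos in all 25 clusters.

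Drg1 was called higher in 7 of 25 clusters (Clusters 4, 5, 9, 11, 12, 13 and 15) and in 22 without S2-4. Its log2 difference varied little among clusters, with a median of 0.61 and an SD of 0.11 over clusters, and was smallest in Cluster 23, at 0.21 ± 0.21 (SE). Without S2-4 the median was 0.77 and the value in Cluster 23 was 0.38 ± 0.20. C2cd2 was called in 5 of 23 clusters (Clusters 1, 5, 8, 11 and 22), just inside the rule, and in 15 of 24 without S2-4. Its difference varied more, from 0.05 ± 0.22 in Cluster 9, the early PN, to 1.32 ± 0.24 in Cluster 22, callosal PN, with a median of 0.67. Without S2-4 these became 0.14 ± 0.23 and 1.56 ± 0.23, with a median of 0.84.

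4930432K21Rik was called in 8 of 23 clusters with a median log2 difference of 0.89, and in 19 of 22 with a median of 1.15 without S2-4. 5430419D17Rik passed the filter on low counts in 9 clusters, with fewer than 100 UMIs in 16 of 25, and was called in 6 of those 9 with a median of 1.53. None of these 6 calls was left when counts were thinned to equal depth. Gm26909 was tested in 18 clusters and called in 9, the most of the 8 genes, with a median of 1.304 and the largest difference, 1.92 ± 0.24 (SE), in Cluster 15. Gm26573 was called in 7 of 23 clusters with a median of 0.88. Without S2-4 these last 3 genes were called in 11 of 11, 17 of 17 and 19 of 23 clusters, with medians of 1.84, 1.68 and 1.13.

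With all embryos, all 8 genes were called in the migrating interneurons of Cluster 5 only, where 2.01% of 10705 genes were called. Without S2-4 all 8 were called in Clusters 1, 2, 3, 4, 5 and 8, where 12.5% to 15.3% of all genes were. In Cluster 8 (PN 1) 7 of 8 were called, where 1.94% of genes were, and 5 of 8 were called in Cluster 1 (3.26% of all genes tested there), 5 of 8 in Cluster 3 (1.85%), 5 of 8 in Cluster 4 (0.719%) and 5 of 7 in Cluster 11 (0.835%). In Cluster 6 (non-mitotic IPC) 0 of 8 were called although it held 3764 nuclei, where 0.00927% of genes were called, and in Cluster 7 (Int 1) 0 of 8, where 0.0798% were. Without S2-4, 7 of 8 were called in both, where 14.0% and 7.67% of all genes were. Clusters 14, 18 to 21 and 23 to 25, with 124 to 1289 nuclei each, also had 0 members called of the 3 to 7 tested with all embryos, where 0% to 0.409% of all genes were. Without S2-4, 6 members were called in Cluster 14 (4.05% of all genes), 4 in Cluster 18 (3.29%) and 6 in Cluster 19 (4.14%). Clusters 20, 21 and 23 then had 1, 2 and 1 (1.09%, 2.66% and 3.40%), and Clusters 24 and 25 had 0 (0.4785% and 0.0602%).

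**Figure D2:**
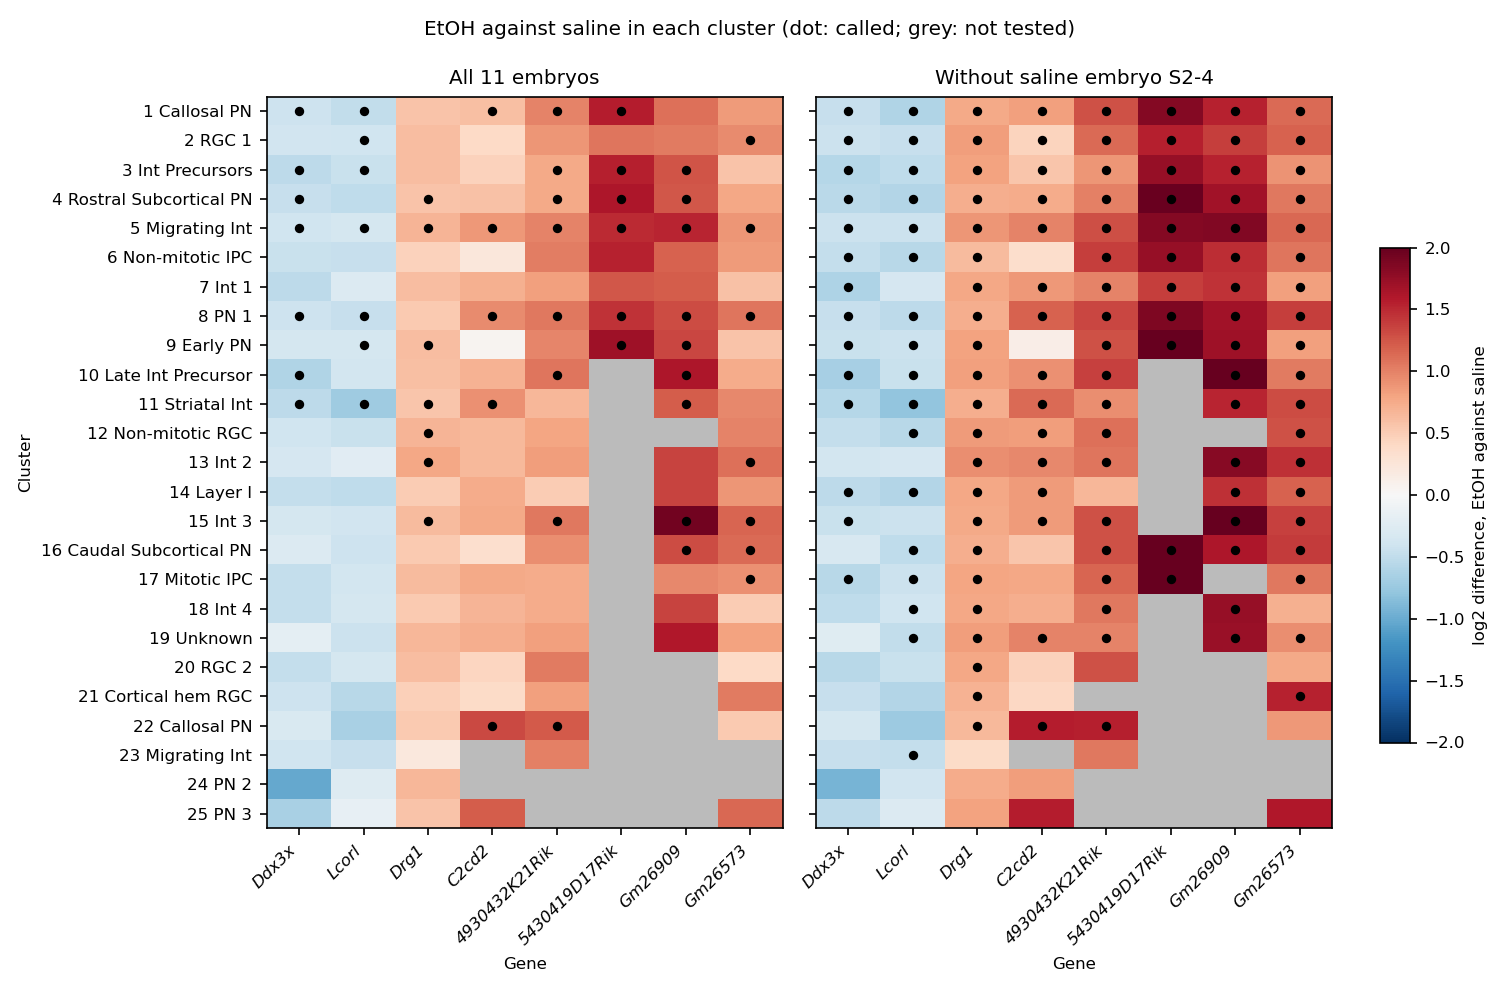
Log2 difference of EtOH against saline (colour, blue lower and red higher) of the 8 genes (columns) in the 25 clusters (rows, numbered and named as the authors did), with all 11 embryos on the left and without S2-4 on the right; black dots mark calls and grey marks clusters where a gene was not tested. Ddx3x and Lcorl are blue and the other 6 genes red in every tested cluster, and calls number 56 on the left and 134 on the right.

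The place of S2-4 in single clusters differed from gene to gene. It was read where the other saline embryos and the EtOH embryos did not overlap, which held for 6.49% of all tests of a gene in a cluster in the higher and 2.45% in the lower direction. The counts below also take in clusters where a gene was too low to be tested. The place of S2-4 was not tallied over all genes. In such clusters the level of S2-4 lay within the EtOH range in 7 of 12 for Ddx3x, 13 of 18 for Lcorl, 19 of 23 for Drg1 and 10 of 13 for C2cd2. For 4930432K21Rik it did so in 10 of 16, for Gm26909 in 12 of 15 and for Gm26573 in 15 of 18. For 5430419D17Rik S2-4 lay within the EtOH range in 2 of 10 such clusters, between the groups in 5 and within the range of the other saline embryos in 3. Those 10 include Clusters 12, 17 and 25, with 69, 63 and 6 UMIs, where the gene was not tested with all embryos. Clusters 17 and 25 are among the 3.

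Both batches showed the EtOH difference in the same direction for all 8 genes. In batch 1, with 2 saline and 2 EtOH embryos, the log2 difference was -0.62 for Ddx3x, -0.50 for Lcorl, 0.74 for Drg1, 0.62 for C2cd2, 1.23 for 4930432K21Rik, 1.92 for 5430419D17Rik, 1.39 for Gm26909 and 1.07 for Gm26573. In batch 2, which holds S2-4, it was -0.47, -0.36, 0.40, 0.60, 0.67, 1.11, 1.17 and 0.64 in the same order. All 8 values were smaller in size in batch 2. The difference between the batches, batch 2 less batch 1, was largest in size for 5430419D17Rik, at -0.79 ± 0.42 (SE), and for 4930432K21Rik, at -0.56 ± 0.29. Without S2-4 these became -0.53 ± 0.38 and -0.27 ± 0.13. That of Drg1 went from -0.34 ± 0.24 to -0.08 ± 0.09 without S2-4, and that of Gm26573 from -0.435 ± 0.37 to -0.10 ± 0.235. For Ddx3x it went from 0.15 ± 0.18 to 0.07 ± 0.17, and for Lcorl from 0.15 ± 0.17 to 0.01 ± 0.10. For Gm26909 and C2cd2 its sign changed without S2-4, from -0.22 ± 0.47 to 0.24 ± 0.29 and from -0.02 ± 0.20 to 0.155 ± 0.13, so that the other 6 genes were then still those with the smaller EtOH difference in batch 2. Over all genes edgeR called 0 of 19135 (0%), 1572 had an unadjusted p under 0.05, and DESeq2 called 22.

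At fixed treatment, levels in batch 2 were compared with those in batch 1, where batch and dam cannot be told apart. None of the 8 genes passed the test in edgeR (adjusted p 0.66 to 0.841), with 1 of 8, 5430419D17Rik, at an unadjusted p of 0.0286 and a log2 difference of 0.59 ± 0.24 (SE). DESeq2 called 0 of the 6 members for which it gave an adjusted p, which leave out 5430419D17Rik and Gm26909. Without S2-4 edgeR again called 0 of the 8 (adjusted p 0.524 to 0.997), with an unadjusted p of 0.0449 for 5430419D17Rik (0.445 ± 0.20) and 0.0398 for 4930432K21Rik, whose difference went from 0.32 ± 0.165 to 0.17 ± 0.08, and that of Drg1 went from 0.15 ± 0.13 to 0.03 ± 0.05. Over all genes edgeR called 0 of 19135 (0%), with 1432 at an unadjusted p under 0.05, and DESeq2 called 37. The batch difference was smallest in size for Lcorl, at -0.07 ± 0.09 with all embryos.

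**Figure D3:**
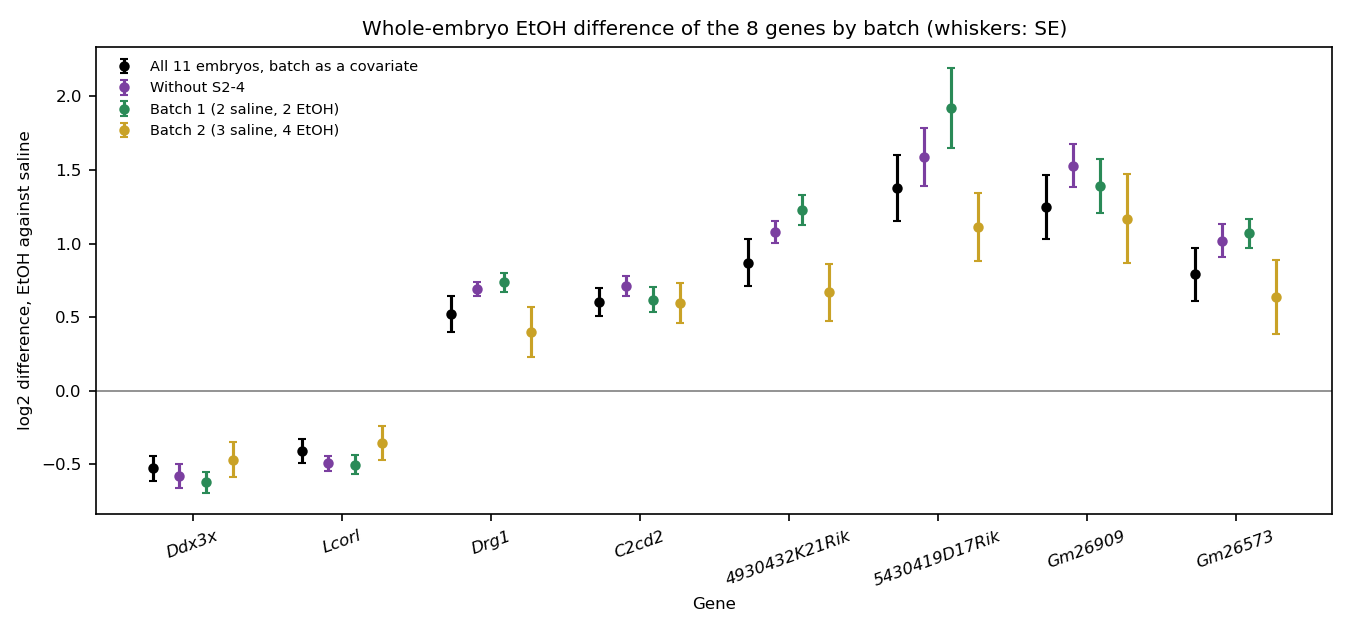
Whole-embryo log2 difference of EtOH against saline (vertical axis, whiskers SE) of the 8 genes with all 11 embryos (black), without S2-4 (purple), in batch 1 (green) and in batch 2 (yellow). Points lie on the same side of 0 for each gene, and for Drg1 they run from 0.40 in batch 2 to 0.74 in batch 1.

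The size of the EtOH difference was compared among RGCs, IPCs, PN and interneurons, with the embryo as a block. A rule that asks for 1 direction in several clusters favours genes that are alike among cell types, so the values of the 8 genes are given without a test. Over all genes, 99 of 15698 (0.631%) differed between these 4 types in edgeR. Fitted in each type alone, the EtOH difference of Drg1 was 0.60 ± 0.15 (log2, SE) for RGCs and 0.49 ± 0.12 for IPCs, against 0.54 ± 0.12 for PN and 0.58 ± 0.13 for interneurons. That of C2cd2 was 0.41 ± 0.08 for RGCs and 0.43 ± 0.17 for IPCs, and larger for PN (0.70 ± 0.16) and interneurons (0.695 ± 0.12). 5430419D17Rik had 1.70 ± 0.27 for IPCs and 1.58 ± 0.23 for PN, against 1.14 ± 0.33 for RGCs and 1.15 ± 0.20 for interneurons. For the 2 genes that were lower, Ddx3x lay between -0.49 and -0.43 and Lcorl between -0.47 and -0.36 in the 4 types.

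Some of the genes had higher levels in RGCs and others in PN or interneurons. As grouped here, RGCs include the interneuron precursors of Cluster 3, and interneurons include the late interneuron precursors of Cluster 10. Clusters had been made by the authors from the same nuclei, and CPM and the fitted values differ here because the factors of the TMM (trimmed mean of M values) scaling were 1.04 to 1.22 in RGCs and 0.786 to 0.894 in PN. Scaling to total counts, added after the data were seen, moved the median gene by -0.42 on the log2 scale for PN against RGCs, by -0.28 for interneurons and by -0.11 for IPCs.

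Ddx3x fell from 154 ± 28.5 CPM (SD, n = 11 embryos) in RGCs and 149 ± 28.5 in IPCs to 107 ± 18.1 in interneurons and 79.3 ± 14.0 in PN, with PN below RGCs in all 11 embryos. The fitted log2 difference was -0.53 ± 0.03 (SE, edgeR adjusted p = 4.88e-18) for PN and -0.24 ± 0.03 (edgeR adjusted p = 3.09e-08) for interneurons against RGCs, and -0.95 and -0.53 when scaled to total counts. Drg1 followed the same order, with 205 ± 58.6, 193 ± 48.3, 146 ± 40.4 and 134 ± 33.6 CPM in RGCs, IPCs, interneurons and PN. Its fitted difference was -0.17 ± 0.03 for PN (edgeR adjusted p = 9.74e-08) and -0.20 ± 0.03 for interneurons (edgeR adjusted p = 5.27e-09), and -0.595 and -0.49 when scaled to total counts. The difference between IPCs and RGCs did not pass the test for Ddx3x (0.06 ± 0.04, edgeR adjusted p = 0.121) or Drg1 (0.03 ± 0.03, edgeR adjusted p = 0.272) with all embryos. Without S2-4 both were higher in IPCs, Ddx3x by 0.11 ± 0.04 (edgeR adjusted p = 0.0114) and Drg1 by 0.095 ± 0.03 (edgeR adjusted p = 0.00294). Scaled to total counts the values turned below 0, to -0.05 ± 0.04 for Ddx3x (edgeR adjusted p = 0.283) and to -0.07 ± 0.03 for Drg1, which then passed the test as lower in IPCs (edgeR adjusted p = 0.0155).

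Lcorl was higher in PN and interneurons, with 481 ± 75.8 CPM in RGCs, 425 ± 67.3 in IPCs, 541 ± 70.0 in interneurons and 630 ± 135 in PN. PN and interneurons each lay above RGCs in 11 of 11 embryos. The fitted difference was 0.80 ± 0.04 for PN (edgeR adjusted p = 5.18e-23) and 0.46 ± 0.04 for interneurons (edgeR adjusted p = 6.35e-15), and 0.38 and 0.17 when scaled to total counts. Gm26909 was higher than in RGCs in 11 of 11 embryos in each of IPCs, PN and interneurons, with 9.19 ± 4.28, 13.8 ± 6.73, 15.7 ± 7.55 and 16.2 ± 8.23 CPM, and fitted differences of 0.72, 1.19 and 1.07, which were 0.615, 0.77 and 0.79 when scaled to total counts. 4930432K21Rik was likewise higher in PN (0.68 ± 0.06) and interneurons (0.77 ± 0.06) than in RGCs, in 11 of 11 embryos for each, and by 0.26 and 0.48 when scaled to total counts.

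C2cd2 was lowest in IPCs, with 27.2 ± 7.20 CPM against 43.5 ± 8.53 in RGCs, a fitted difference of -0.60 ± 0.10 (edgeR adjusted p = 3.43e-06), and RGCs were the higher in 11 of 11 embryos. Its difference between PN and RGCs turned with the scaling, from 0.20 ± 0.08 to -0.22 with total counts. Gm26573 was highest in RGCs, with 39.8 ± 15.1 CPM, and lower in interneurons by a fitted -0.41 ± 0.05 (edgeR adjusted p = 8.66e-10), or -0.70 with total counts. For PN its fitted value was 0.02 ± 0.05 and turned to -0.40 with total counts. 5430419D17Rik was higher in interneurons than in RGCs (0.56 ± 0.11, or 0.28 with total counts), and its difference for PN, 0.42 ± 0.10, was -0.00061 with total counts. Over all genes, 27.9% were called higher and 34.1% lower in IPCs than in RGCs, 40.3% and 40.7% in PN, and 38% and 40.7% in interneurons.

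**Figure D4:**
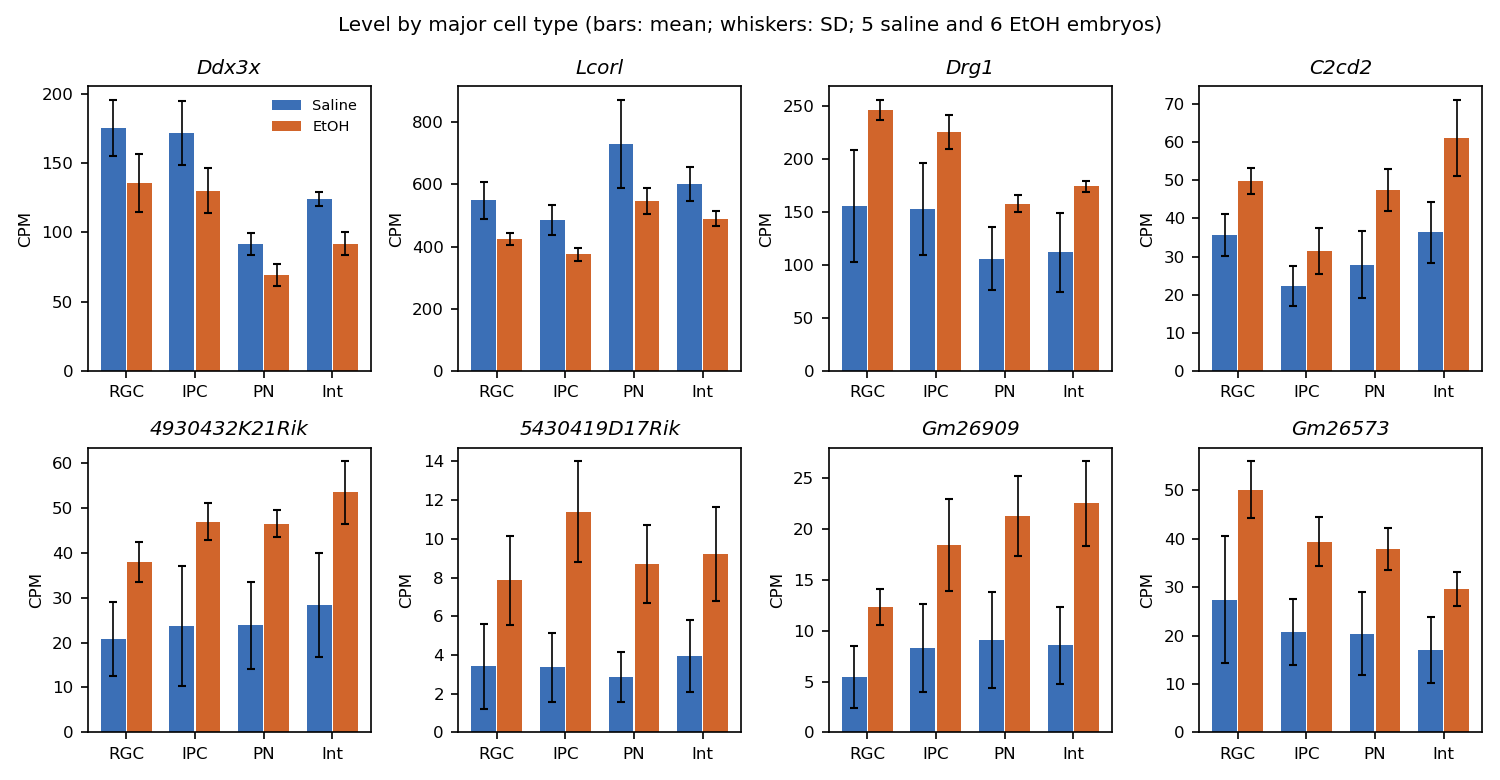
Level (CPM, linear axes from 0) of the 8 genes in RGCs, IPCs, PN and interneurons (Int), as mean (bar) and SD (whisker) over 5 saline (blue) and 6 EtOH (orange) embryos, S2-4 included. Ddx3x falls from 176 CPM in RGCs to 91.6 CPM in PN of saline embryos, and from 136 to 69.0 CPM in EtOH embryos.

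Over the 25 clusters the order of levels differed from gene to gene, and neighbouring clusters in that order differed by less than the larger of their SDs in 24 of 24 steps for 7 genes and in 23 for Lcorl. Ddx3x was highest in Cluster 10, late interneuron precursors, at 177 ± 46.2 CPM (SD, n = 11), followed by Clusters 12, 2, 3 and 17, which are progenitors, and lowest in Clusters 4 and 25 at 55.5 ± 11.2 and 41.9 ± 14.7 CPM (98 UMIs in Cluster 25). Drg1 was highest in Cluster 2 at 211 ± 62.4 CPM, with Clusters 3, 17 and 12 within 6 CPM of it, and lowest in Cluster 25 at 100.3 ± 33.8 CPM. Lcorl was highest in Cluster 23, migrating interneurons, at 1042 ± 200 CPM (n = 10), and lowest at 188 ± 55.2 CPM in Cluster 11. C2cd2 had 75.7 ± 31.2 CPM in Cluster 19, which the authors left unnamed, the highest mean over both treatments, and was lowest, at 16.3 ± 4.05 CPM, in Cluster 9. Among EtOH embryos alone its level was higher in Cluster 25 (119 ± 67.9 CPM, n = 2) and Cluster 22 (92.2 ± 17.9 CPM, n = 6) than in Cluster 19 (89.8 ± 29.5 CPM, n = 6), while among saline embryos Cluster 19 was the highest (58.8 ± 26.2 CPM, n = 5). Gm26573 was highest in the RGC Clusters 21, 12 and 2, at 56.2, 49.2 and 41.6 CPM, and lowest in Cluster 5, at 18.9 ± 7.37 CPM. The other 3 genes spanned 17.4 to 46.5 CPM (4930432K21Rik), 2.92 to 10.3 CPM (5430419D17Rik) and 5.74 to 20.8 CPM (Gm26909), each lowest in Cluster 25. Those lowest values rest on 38, 6 and 13 UMIs, and the highest values of 5430419D17Rik (Cluster 23) and Gm26909 (Cluster 24) on 21 and 45 UMIs, too few for a firm level or order. These means pool the treatments, and the order of clusters differs where 1 treatment is taken alone. Among EtOH embryos alone Ddx3x was highest in Cluster 12 and Gm26909 in Cluster 15, and Gm26573 was lowest in Cluster 18 and 5430419D17Rik, with 22 UMIs over both treatments, in Cluster 20. Among saline embryos alone 4930432K21Rik was highest in Cluster 18 and Gm26573, with 43 UMIs over both treatments, lowest in Cluster 23.

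The genes most like each member were sought by Pearson's r of mean log2 CPM (prior 1) over the 25 clusters, among 10987 genes with a mean of at least 5 CPM. The clusters share embryos and libraries, so these values are a description. They rest on CPM, and with scaling to total counts the median gene was lower in PN (log2 -0.41) and interneurons (-0.30) than in RGCs. How far this shift, shared by many genes, enters r was not tested. Ddx3x was most like Hnrnpk, Srsf3 and Arid1a (r 0.977, 0.974 and 0.973), and Drg1 most like Naa15, Sf1 and Gspt1 (0.973, 0.971 and 0.970). Ddx3x and Drg1 followed each other as well (r = 0.926), although 1 was lower and the other higher after EtOH. For Lcorl the 3 nearest genes were Pcdh9, Plat and Inpp5b, at only 0.764, 0.663 and 0.658. Among the 3 genes nearest to C2cd2 were Cobl and Hook1 (0.883 and 0.877). 4930432K21Rik was nearest to St8sia2, Tmem39b and Camsap2 (0.891, 0.874 and 0.853), and 5430419D17Rik to Gm37584, Csnk1e and Hcfc2 (0.893, 0.877 and 0.875). Gm26909 was nearest to Cog6, Cep170 and Ss18l1 (0.895, 0.873 and 0.862), and among the 3 nearest to Gm26573 were Gm28376 and Jph1 (0.844 and 0.831).

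Ddx3x was set beside 6 other genes that escape X inactivation. Kdm6a, a histone demethylase gene of this group, had 128, 133 and 140 CPM in E2-1, E2-3 and E1-1, 146 CPM in S2-1, and between 191 and 224 CPM in the other 7 embryos. The 3 EtOH embryos with the least Kdm6a were those with the least Ddx3x (77.6, 82.7 and 90.6 CPM), and the other 3 had 96.7 to 105 CPM of Ddx3x. Eif2s3x, which encodes a translation initiation factor subunit, divided the embryos the same way, with 26.2 to 28.1 CPM in E2-1, E2-3 and E1-1, 32.4 CPM in S2-1 and 39.0 to 48.2 CPM in the rest. Low values of both were thus seen in 3 of 6 EtOH embryos and 1 of 5 saline embryos, and their part in the difference of Ddx3x was examined only with Kdm6a as a covariate. With the log2 CPM of Kdm6a as a further covariate, an alternative added after the data were seen, the log2 difference of Ddx3x was -0.42 ± 0.08 (SE), against -0.53 ± 0.09 without it.

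**Figure D5:**
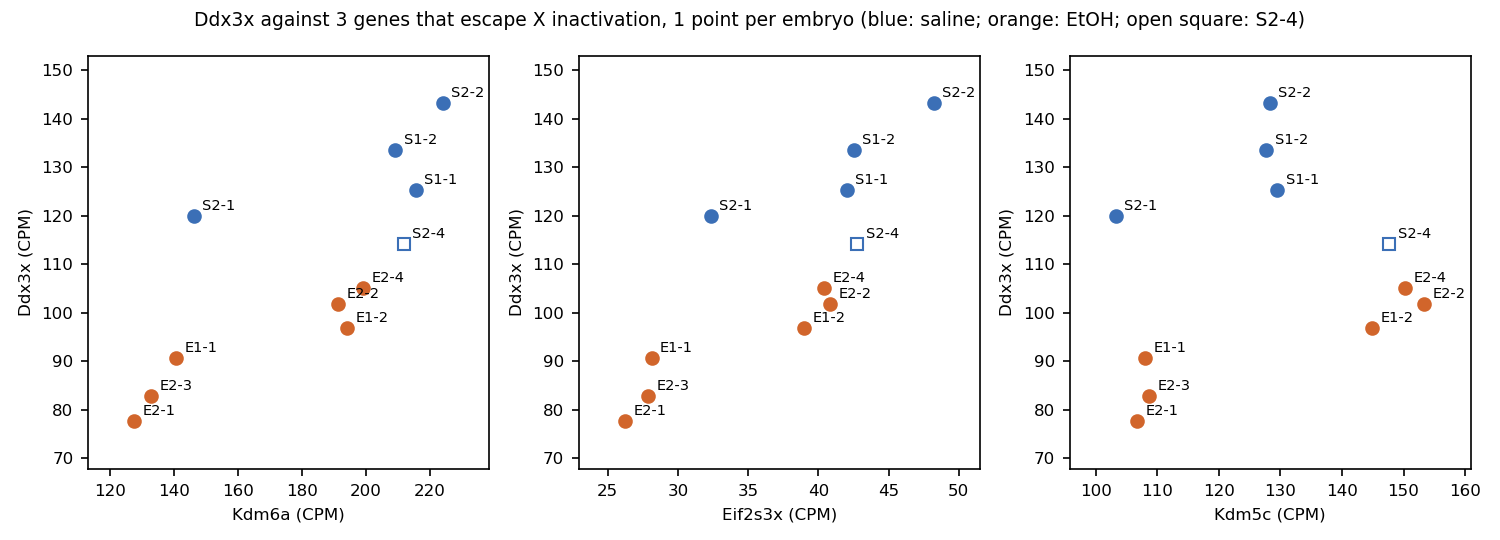
Level of Ddx3x (CPM, vertical axis) against that of Kdm6a, Eif2s3x and Kdm5c (CPM, horizontal axes; axes do not start at 0), each point 1 embryo, blue for saline, orange for EtOH and an open square for S2-4. E1-1, E2-1, E2-3 and S2-1 lie to the left in each panel, and Ddx3x reaches at most 105 CPM in EtOH embryos and at least 114 CPM in saline embryos.

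Of the 6 escape genes in the tables, 0 were called in 139 tests in clusters with all embryos. Over all genes 0.442% of such tests were called higher and 0.35% lower, so that 0 calls in so few tests says little. Without S2-4 Eif2s3x was lower in 2 clusters, where 2.61% of all tests were called lower. Over whole embryos 1 of the 6, Ftx, a non-coding RNA gene of the X inactivation centre, passed the test narrowly (log2 -0.18 ± 0.06), where 9.45% of all genes were called lower and 9.2% higher, while Kdm6a had -0.35 ± 0.15 (edgeR adjusted p = 0.122) and Kdm5c -0.05 ± 0.12 (edgeR adjusted p = 0.803). The median of the 6 was -0.27, against 0.01 over all 19135 genes. None of the Y-linked genes in the tables was called in a cluster, where 1 of 24 had enough counts to be tested, in 5 tests. Over whole embryos 7 of them were tested and 0 called, with a median log2 difference of 0.35. The authors had removed sex-specific genes, with Xist, Ddx3y, Uty, Kdm5d and Eif2s3y among them. These counts therefore cannot show the sex of the embryos, which the labels do not give. The part of embryo sex in the difference of Ddx3x was not tested.

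Among 52 other symbols that begin with Ddx or Dhx, which name DEAD and DEAH box helicases except for the opposite-strand RNA Dhx58os, 1 test was called higher (Ddx54) and 1 lower (Ddx6) of 917 tests in clusters, where 0.442% and 0.35% of all tests were called, and 41 higher and 3 lower without S2-4, where 6.17% and 2.61% were. Over whole embryos 6, Dhx58os among them, were called higher and 3 lower, where 9.2% and 9.45% of all genes were, with a median log2 difference of 0.01. The 3 that were lower were Dhx15 (-0.27), Ddx6 (-0.23) and Ddx17 (-0.24). Of 12 genes of PRC2 and LCOR, 6 were called lower and 1 higher over whole embryos, where 9.45% of all genes were called lower and 9.2% higher, with a median of -0.14 against 0.01 over all genes. Ezh2, the methyltransferase of PRC2, fell by 0.26 on the log2 scale and its partner Suz12 by 0.30, each called in 1 cluster, and Lcor had -0.11 ± 0.05 (edgeR adjusted p = 0.13) and was called in 0 of 25 clusters. Drg2 and the DRG partners Zc3h15 and Rwdd1, with Eif2ak4, were called in 0 of 84 tests in clusters and 0 of 4 over whole embryos. At the shares over all genes given above, 0 calls in so few tests says little. Zc3h15 had -0.02 ± 0.04, Drg2 0.08 ± 0.08 and Rwdd1 0.01 ± 0.05. C2cd2l had -0.03 ± 0.09, and of the 4 C2 domain genes only Esyt3 was called over whole embryos, higher by 0.59 ± 0.16, with 0 calls in clusters.

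Genes beside the members on the chromosome were called in both directions. Within 500 kb of a member, 107 genes were tested over whole embryos, of which 12 were called in the direction of their member and 12 in the other, where 18.65% of all genes were called in either direction. Patz1, which encodes a zinc finger transcription factor and lies 22.5 kb from Drg1, moved the opposite way, from 73.9 ± 10.6 to 55.0 ± 3.02 CPM, and was called lower in 4 clusters, and in 15 without S2-4. Cc2d1a, 89 bases from 4930432K21Rik, had a log2 difference of 0.14 ± 0.06, and Nanos3 on its other side, 1.14 kb away, was higher by 0.27 ± 0.06. Prdm15, 3.36 kb from C2cd2, had -0.07 ± 0.06 and Ikbkb, 12.9 kb from Gm26909, -0.07 ± 0.04, each called in 0 of 25 clusters. Ncapg, which overlaps Lcorl, was lower by 0.38 ± 0.09 over whole embryos and called in 0 of 14 clusters, and Eif4enif1 and Sfi1, which overlap Drg1, had -0.15 ± 0.05 and -0.10 ± 0.06. Zbtb21, which overlaps C2cd2 on the same strand, had 0.020 CPM in saline and 0.031 CPM in EtOH embryos. It was too low to be tested in any cluster. How reads of the shared bases were assigned was not examined. The nearest genes of Ddx3x (2010308F09Rik and Nyx), of 5430419D17Rik (Dmbt1 and Fam24a) and of Gm26573 (Zfp986 and Zfp991), 9630001P10Rik beside Lcorl, Gm11399 beside Drg1, C030010L15Rik beside C2cd2 and Dkk4 beside Gm26909 were too low to be tested in any cluster.

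A further 24 genes met the same rule of 5 or more clusters, 13 higher and 11 lower, and 24 more were called in exactly 4 clusters (10 higher and 14 lower), just outside it. Kcnq1ot1, an imprinted long non-coding RNA, was lower in 10 clusters, more than any of the 8 members reached. Rbpj, the transcription factor of Notch signalling, and Sox11, a factor of neuronal differentiation, were each lower in 7 clusters. Without S2-4, Kcnq1ot1, Rbpj and Sox11 were called lower in 19, 14 and 23 clusters.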

How the data were processed

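The authors sequenced nuclei with 10x Single Cell 3′ version 3.1 chemistry, and the submitters' processing notes name Cell Ranger and mm10. The deposited tables hold raw UMI counts per gene and nucleus, 1 table per embryo and cluster, after the authors had left out low-quality nuclei, clusters of other cells and sex-specific genes and had clustered the rest. Whether doublets were called, and the strand used in counting, is not given in the sources used here, and no doublets were called here.

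Counts were summed per embryo and cluster (at least 10 nuclei, at least 2 embryos per group) and per embryo over all clusters, and CPM were taken from these sums. Clusters were tested by EtOH against saline with edgeR 4.0.16 (quasi-likelihood, robust, filterByExpr, TMM) in R 4.3.3, with no covariate and Benjamini-Hochberg adjustment over the genes of each cluster at 0.05, and whole embryos with batch as a covariate; SEs were taken from the log2 difference and its F statistic. Cell types were compared with the embryo as a block. Alternatives used DESeq2 1.42.0 and limma 3.58.1. The shared fitting functions were tested on simulated counts, for a single cluster, for whole embryos and for PN against RGCs. Other steps used Python 3.11.15, pandas 2.3.3, NumPy 2.4.6 and matplotlib 3.10.9.

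The members, gene lists and tests were chosen with earlier results of these data known. Named are the 8 members, the 3 genes most like each, their paralogs or direct partners, related genes called in at least 3 clusters, nearest and overlapping genes, and the unlisted genes called in most clusters (4, since 3 tied). Some genes that this rule names are not reported here. Related genes named beyond the direct partners, such as Kdm6a, Eif2s3x, Kdm5c, Ddx54, Ddx6, Dhx15, Ddx17, Ezh2, Suz12, Esyt3 and Ftx, were chosen after their values were seen. Depth was 14078316 to 83061737 UMIs per embryo, with every EtOH embryo below every saline embryo. A gene under 100 UMIs in a cluster was too shallow for a firm level.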

Additional observations from a re-analysis of the deposited data

Results flagged for a closer look

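Saline embryo S2-4 lay far from the other 4 saline embryos for 3 of the 8 genes. Dixon's ratio, the gap to the nearest saline embryo divided by the range of the group, was 0.734 for Drg1, where S2-4 had 191 CPM and the next highest saline embryo 124 CPM. It was 0.71 for C2cd2, with 46.4 CPM against 33.5 CPM, and 0.725 for Gm26909, with 14.9 CPM against 8.04 CPM. In 16 groups tested (8 genes in saline and in EtOH embryos) these 3 passed the critical value. Chance passes about 1 in 20 independent groups, but these groups are genes of the same libraries and the 3 are the same embryo, so that rate is no yardstick here, and the genes were chosen on these values. The cause was not tested.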

How the results depend on the processing

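Alternatives moved the number of calls far more than the size of the differences. The median log2 difference over clusters of each of the 8 genes kept its sign under all 19 alternatives run, and the whole-embryo difference under all 20. The 8 genes were chosen for a shared direction in these embryos, and the alternatives reuse all or most of the same counts. Keeping the sign was therefore largely set in advance and is no evidence that the differences are robust. It was not tallied over other genes. With all embryos, calls of a gene in a cluster (961 higher, 760 lower) became 503 and 408 with batch as a covariate, 3598 and 2071 by DESeq2 and 5068 and 5661 without a filter on low counts. By limma voom with dam as a random block 3934 were higher and 943 lower. Calls of the 8 genes (56) became 26, 95 and 118 under the first 3, and 28 with counts summed per dam, where the calls over all genes went to 1248 higher and 864 lower. Over whole embryos, summing per dam left 217 genes higher, 140 lower and 3 of the 8 called, and scaling to total counts left 715 lower. Embryo numbers did not pair the samples (correlations of the same number from -0.135 to 0.0821). With them as a replicate block 192 and 278 tests and 14 tests of the 8 genes were called, and over whole embryos 0 genes higher, 0 lower and 0 of the 8.

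Leaving out 1 embryo gave 39 to 13401 calls higher and 50 to 5658 lower in clusters, and 3 to 134 for the 8 genes. S2-4 gave the 134, S1-1 and S1-2 gave 3 each, E2-1 4, E2-2 6, E1-2 9, S2-1 9, E2-3 10, E2-4 13, S2-2 17 and E1-1 22. Over whole embryos it gave 0 to 3696 genes higher, 8 to 3289 lower and 0 to 8 of the 8 genes, with 0 without E1-2 or S1-2 and 4 without S2-1. The difference between batches in the EtOH effect was called for 0 to 266 genes (266 without S2-1) and, by DESeq2, for 22. Between batches DESeq2 called 37 genes with all embryos, and edgeR 0 with all embryos and 0 to 0 with any embryo left out. The EtOH effect differed between cell types for 229 genes by DESeq2, 47 by limma voom, 40 when scaled to total counts and 37 when thinned to equal depth, and for 11 to 194 when leaving out 1 embryo. Thinning left 8126 genes called between interneurons and RGCs. Leaving out 1 embryo gave 9438 to 9696 genes and 5 to 7 members for IPCs, 12443 to 12688 and 6 to 7 for PN, and 12080 to 12369 and 8 to 8 for interneurons.

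Some small differences changed sign. The batch difference in the EtOH effect of C2cd2 (-0.02) became 0.06412, 0.00107, 0.03173, 0.007766 and 0.155 without E1-2, E2-3, E2-4, S1-1 and S2-4, with -0.1175 to 0.155 over all embryos left out, and that of Gm26909 (-0.22, -0.4804 to 0.2415 over all embryos left out) became 0.1004 without E1-2 and 0.2415 without S2-4. Scaled to total counts, IPC against RGC was -0.04607 for Ddx3x and -0.07318 for Drg1, and PN against RGC was -0.2249 for C2cd2, -0.0006131 for 5430419D17Rik and -0.3986 for Gm26573. For Drg1 in IPCs it was -0.006258 in EtOH embryos only and -0.03769 after thinning, and for Gm26573 in PN -0.07081 after thinning and -0.009662 without E2-1 (up to 0.05719, without S2-2). The causes were not tested. Scaling to total counts and the Kdm6a covariate were chosen after seeing the data. Not fitted were 2 of 25 clusters with at least 30 nuclei, and 1 each with counts summed per dam, with the replicate block, without E2-2 and without E2-3.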
